A study of Mus musculus with 6 samples.

Results

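The Wnt ligands, their receptors and their secreted antagonists were followed as a set of 48 genes among the 22180 genes measured. The members were taken by gene symbol from the annotation of the array, by a rule that used no measured value. They comprise 19 Wnt ligands, 10 Frizzled receptors, the 2 co-receptors Lrp5 and Lrp6, 4 R-spondins, the 3 R-spondin receptors Lgr4, Lgr5 and Lgr6, 4 Dickkopf genes, and 6 genes of the Frizzled-related proteins and Wif1. All values are log2 expression values of Affymetrix Mouse Gene 2.0 ST arrays, and a difference of 1 on this scale is 2-fold.

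Each of the 6 groups was 1 library on 1 array, so no difference given here was tested or has a replicate check, and precision is limited by having 6 arrays. The first library, called iPS here, came from undifferentiated mouse induced pluripotent stem cells, made by reprogramming body cells to a state from which many tissues can form. These cells had been kept on feeder cells in medium with serum and LIF, and the labels do not say whether feeder cells were removed before RNA was taken. The next 3 libraries were cultures differentiated from these cells for 7 days, which had spent 5 days in suspension as embryoid bodies before plating on gelatin. They received 1% DMSO, a solvent used to start differentiation, 100 ng/ml of NRG-1 (neuregulin 1, a ligand of ERBB receptors), or both, and no differentiated culture without an agent was part of the set. The remaining libraries, labelled neonatal and adult cardiomyocytes, were prepared from mouse hearts. The labels give the strain DBA/2J and female sex for every sample, and give neither the age of the animals nor how many were pooled.

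Wnt proteins are secreted lipid-modified signals that bind a Frizzled receptor together with Lrp5 or Lrp6, which stabilises beta-catenin and switches on target genes through TCF and LEF factors. Frizzled-related proteins and Wif1 bind the ligands outside the cell, Dickkopf proteins act on the Lrp co-receptors, and R-spondins bind Lgr receptors and keep Frizzled receptors at the surface by clearing the ubiquitin ligases Rnf43 and Znrf3. In heart formation Wnt signalling first favours mesoderm and later restrains cardiac commitment, so that antagonists are part of the cardiac program.

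The libraries were checked against their labels first. The Y-linked gene Eif2s3y was 6.20 in the neonatal and 8.15 in the adult library, against 2.88 to 3.32 in the other 4, which goes against the label of female sex for the heart libraries. Xist, which is transcribed from the inactive X chromosome, was 8.78 in the neonatal library, where Y-linked genes were also present, and 3.39 in the adult one. Of 14 cardiomyocyte markers, 4 were at least 2-fold higher than in iPS cells in the neonatal library (Tnnt2, Actc1, Nppa and Pln) and 1, Tnnt2, in the adult library, with a median level of 5.97 and 5.17, against 5.24 in iPS cells. In the adult library the cardiomyocyte markers Myh6 and Myl2 were at 5.05 and 5.33, near the median of all values of the table (5.20). All 12 fibroblast and matrix markers were at least 2-fold higher in both heart libraries than in iPS cells, with medians of 10.4 and 11.4 against 6.68. The array medians lay between 5.13 and 5.26. No measure of the error between libraries was available. The nearest was a spread within the same arrays, which can also hold real differences between the parts of a gene that are probed. This spread was the disagreement between the log2 differences of 2 probe sets of 1 gene. Its SD, divided by the square root of 2, was 0.642 for neonatal against iPS, 0.395 for adult against neonatal, 0.306 for NRG-1 against DMSO, and 0.205 for both agents against DMSO.

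Of the 48 members, 40 reached the median of all values in at least 1 library, and 8 never did, namely Wnt1, Wnt3, Wnt8b, Wnt16, Fzd10, Lgr5, Dkk4 and Sfrp4. Between some pair of libraries, 21 members were at least 2-fold apart and 8 at least 4-fold apart with the higher value at or above that median, beside 32.4% and 10.6% of all genes (43.8% and 16.7% of the members). The 8 were Frzb, Sfrp1, Dkk2, Dkk3, Fzd1, Fzd4, Lgr4 and Lgr6, so that 4 were Frizzled-related or Dickkopf genes, 4 were receptors, and no ligand was among them. The median distance between the highest and lowest library was 0.85 over the members and 0.78 over all genes.

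**Figure D1:**
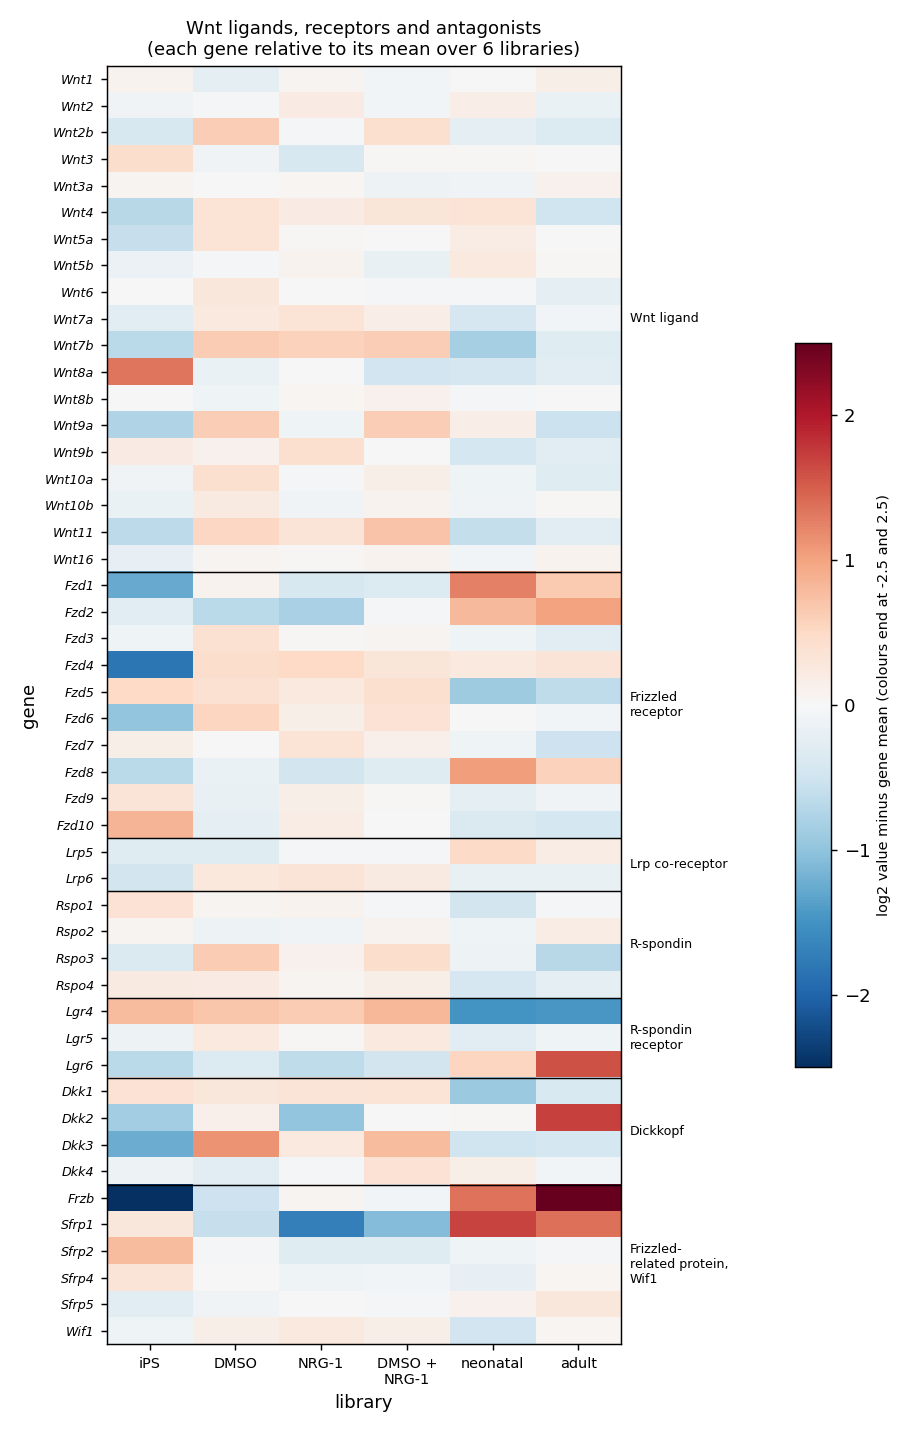
Heat map of all 48 members in the 6 libraries, grouped by role, with colour giving the log2 value minus the mean of that gene over the libraries and ending at -2.5 and 2.5. Frzb runs from dark blue in iPS cells to dark red in the adult library, and Lgr4 is red in the iPS cells and the 3 cultures and blue in both heart libraries.

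Frzb (also called Sfrp3), a secreted protein that captures Wnt ligands through a domain like that of Frizzled receptors, spanned the widest range of any member. Its level was 4.98 in iPS cells, 7.98 with DMSO, 8.55 with NRG-1, 8.43 with both agents, 9.84 in the neonatal and 11.15 in the adult library. The iPS library was the lowest, the 3 cultures lay close together, and both heart libraries lay above every culture. Against iPS cells this is 8.01-fold with DMSO, 11.9-fold with NRG-1, 10.9-fold with both, 29.2-fold in the neonatal and 72.0-fold in the adult library. The adult difference of 6.17 was the 6th highest of the 13760 genes that reached the median of all values in either library. The iPS value lay under the median of all values and was not shown to be above background, so the folds against iPS cells rest on a dim value, and Frzb entered these ranks through the libraries where it was high. Frzb also ranked 37th of 14579 genes by its span over the 6 libraries. Between the heart libraries the adult value was higher by 1.31.

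Sfrp1, a Frizzled-related protein of the same family, differed from Frzb in direction. It stood at 9.05 in iPS cells, 8.19 with DMSO, 7.05 with NRG-1, 7.68 with both, 10.46 in the neonatal and 10.15 in the adult library. All 3 cultures were below iPS cells, by 0.86 with DMSO, 2.01 (4.02-fold) with NRG-1 and 1.38 with both, whereas the heart libraries were above them by 1.41 and 1.09. The distance between the lower heart library and the highest culture was 1.96. Frzb and Sfrp1 were the 2 of 48 members with both heart libraries at least 2-fold above all 4 iPS-derived libraries, beside 2.12% of all genes.

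Sfrp2, another family member, had 2 probe sets that disagreed. The brighter one was 7.08 in iPS cells and between 5.24 and 5.61 in the other 5 libraries, and the dimmer one lay between 4.21 and 4.70 throughout. The mean of both differed from iPS cells by -0.84 with DMSO, -1.10 with NRG-1 and -1.09 with both agents. The brighter probe set alone differed by -1.65, -1.85 and -1.69, so it was at least 2-fold lower in every culture. The remaining genes of this kind moved little. Sfrp4 and Sfrp5 spanned 0.52 and 0.56 over the 6 libraries, and Wif1, which binds Wnt ligands through a different domain, lay between 5.12 and 5.85.

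The Dickkopf genes went separate ways. Dkk2, which binds the Lrp co-receptors, was 5.83 in iPS cells, 6.84 with DMSO, 5.71 with NRG-1, 6.70 with both, 6.74 in the neonatal and 8.41 in the adult library. The adult library stood apart at the top, on the log2 scale 2.58 above iPS cells and 1.68 above the neonatal one, and the NRG-1 culture and iPS cells were the lowest. Dkk3, a divergent relative, was 6.28 in iPS cells, 8.64 with DMSO, 7.77 with NRG-1, 8.31 with both, 7.03 in the neonatal and 7.08 in the adult library. Here the cultures, not the heart libraries, were highest, and with DMSO the gene was 5.13-fold above iPS cells. Dkk1, the classical antagonist of the Lrp co-receptors, lay between 5.96 and 6.04 in the iPS cells and the cultures, and at 4.76 and 5.30 in the neonatal and adult libraries. Dkk4 stayed between 4.53 and 5.19.

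**Figure D2:**
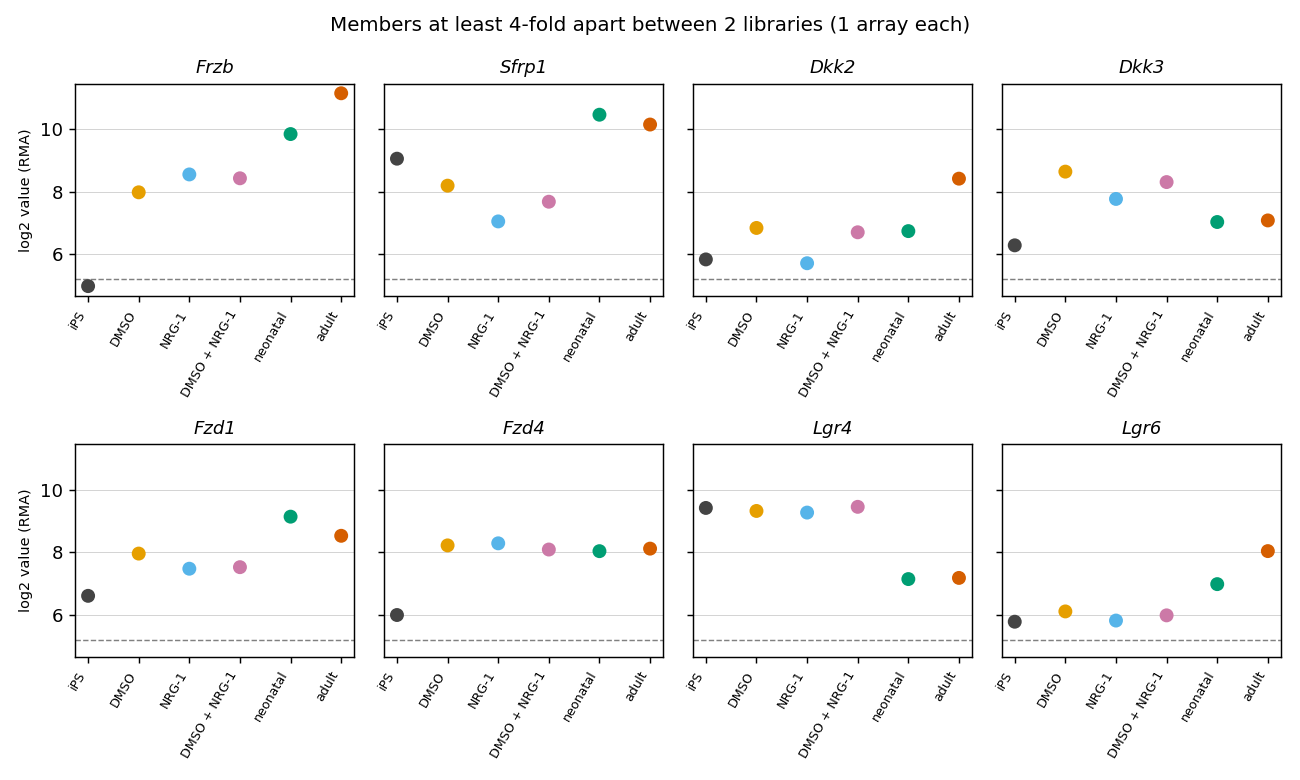
Log2 value of the 8 members at least 4-fold apart between some pair of libraries, with 1 point per library and the median of all values as a dashed line. Frzb runs from 4.98 in iPS cells to 11.15 in the adult library, Sfrp1 is highest in the heart libraries and lowest with NRG-1, Fzd4 is low in iPS cells alone, and Lgr4 is at 7.15 and 7.18 in the heart libraries, below all others.

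Among the receptors, Fzd4, which binds Norrin as well as Wnt ligands, separated iPS cells from all other libraries. Its level was 5.995 in iPS cells, 8.22 with DMSO, 8.29 with NRG-1, 8.09 with both, 8.04 in the neonatal and 8.12 in the adult library. The other 5 libraries lay between 8.04 and 8.29, and the differences from iPS cells were 4.68-fold, 4.90-fold, 4.27-fold, 4.12-fold and 4.36-fold in that order. With Frzb it was 1 of the 2 members for which iPS cells were at least 2-fold below all other libraries, beside 2.29% of all genes. Fzd6, a receptor known for planar cell polarity, had a like but smaller step, from 7.08 in iPS cells to between 8.01 and 8.61 in the others.

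Fzd1 was 6.61 in iPS cells, 7.96 with DMSO, 7.48 with NRG-1, 7.53 with both, 9.14 in the neonatal and 8.53 in the adult library. The cultures were intermediate and the heart libraries highest, 5.79-fold and 3.79-fold above iPS cells. Fzd2 and Fzd8 were also highest in the heart libraries, at 6.94 and 7.14 for Fzd2 and at 6.60 and 6.15 for Fzd8 in the neonatal and adult libraries. In the other 4 libraries Fzd2 lay between 5.31 and 6.07 and Fzd8 between 4.90 and 5.39. Fzd5 went the other way, from 6.98 to 7.24 in the iPS-derived libraries to 5.85 and 6.10 in the heart libraries. Fzd7, a receptor known from pluripotent cells, kept a level of 8.02 to 8.87 in all libraries, and Fzd3 and Fzd9 spanned 0.65 and 0.56. Fzd10 was below the median of all values in every library, with its highest value, 4.44, in iPS cells.

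The co-receptors varied little. Lrp5 ranged from 7.82 in iPS cells to 8.62 in the neonatal library. Lrp6 had a probe set between 9.18 and 10.18, lowest in iPS cells, and a dimmer one between 5.80 and 6.59, lowest in the adult library.

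The R-spondin receptors Lgr4 and Lgr6 ran in opposite directions. Lgr4 was 9.42 in iPS cells, 9.32 with DMSO, 9.27 with NRG-1, 9.46 with both, 7.15 in the neonatal and 7.18 in the adult library. The 4 iPS-derived libraries were within 0.18 of each other (the difference of the highest and lowest), and the heart libraries were 4.84-fold and 4.72-fold below iPS cells. It was the 1 member with both heart libraries at least 2-fold below all iPS-derived ones, beside 0.866% of all genes. Lgr6 was 5.78 in iPS cells, 6.11 with DMSO, 5.82 with NRG-1, 5.98 with both, 6.98 in the neonatal and 8.04 in the adult library. The heart libraries were above all others, and the adult library was 4.79-fold above iPS cells. Lgr5, a stem cell marker of several epithelia, had 2 probe sets that stayed between 4.01 and 4.65. Of the R-spondins, Rspo3 was the single one at least 2-fold apart between libraries, with 6.27 in the DMSO culture and 4.95 in the adult library. Rspo1, Rspo2 and Rspo4 spanned 0.82, 0.32 and 0.66.

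Promoter windows are shown for 5 members at least 4-fold apart, 4 of them highest in a heart library (Frzb, Dkk2, Fzd1 and Lgr6) and 1 lowest there (Lgr4). No window was found for Sfrp1, which was also highest in the heart libraries, or for Dkk3, and that of Fzd4 is not shown. For Dkk2 the adult library alone was above the cultures, since its neonatal value of 6.74 lay under the 6.84 with DMSO. Each is the RefSeq sequence of build GRCm38.p6 from 250 bases before to 50 bases after the annotated start, read 5′ to 3′ on the strand of the gene. The windows are chr2:80447347-80447646 on the minus strand for Frzb, chr3:132085042-132085341 on the plus strand for Dkk2, chr5:4758167-4758466 on the minus strand for Fzd1, chr1:135105227-135105526 on the minus strand for Lgr6, and chr2:109917397-109917696 on the plus strand for Lgr4. Capitals mark each match to CTTTGA or CTTTGT, the core of TCF and LEF sites, on either strand.
Frzb: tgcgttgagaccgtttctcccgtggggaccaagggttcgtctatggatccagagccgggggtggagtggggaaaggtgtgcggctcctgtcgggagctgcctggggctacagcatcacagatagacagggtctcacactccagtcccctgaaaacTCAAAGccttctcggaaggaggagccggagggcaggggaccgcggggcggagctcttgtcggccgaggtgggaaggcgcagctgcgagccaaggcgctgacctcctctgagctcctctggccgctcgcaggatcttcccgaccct
Dkk2: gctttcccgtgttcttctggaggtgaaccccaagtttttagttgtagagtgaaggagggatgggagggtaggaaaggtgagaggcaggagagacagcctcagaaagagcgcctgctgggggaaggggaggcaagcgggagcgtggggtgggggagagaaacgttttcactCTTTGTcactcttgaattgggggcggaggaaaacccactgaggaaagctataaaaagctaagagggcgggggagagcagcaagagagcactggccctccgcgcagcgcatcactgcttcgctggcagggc
Fzd1: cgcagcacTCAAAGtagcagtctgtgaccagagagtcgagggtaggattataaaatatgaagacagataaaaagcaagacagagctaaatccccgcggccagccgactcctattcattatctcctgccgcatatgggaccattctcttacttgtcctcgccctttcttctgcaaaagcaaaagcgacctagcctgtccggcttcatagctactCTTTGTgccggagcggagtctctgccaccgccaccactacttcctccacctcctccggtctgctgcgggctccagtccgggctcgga
Lgr6: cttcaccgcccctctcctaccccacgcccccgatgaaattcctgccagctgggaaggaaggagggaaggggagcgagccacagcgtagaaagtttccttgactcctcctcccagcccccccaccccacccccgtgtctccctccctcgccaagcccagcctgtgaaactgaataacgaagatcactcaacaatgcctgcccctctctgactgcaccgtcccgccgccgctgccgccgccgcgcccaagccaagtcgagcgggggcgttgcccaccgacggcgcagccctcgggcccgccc
Lgr4: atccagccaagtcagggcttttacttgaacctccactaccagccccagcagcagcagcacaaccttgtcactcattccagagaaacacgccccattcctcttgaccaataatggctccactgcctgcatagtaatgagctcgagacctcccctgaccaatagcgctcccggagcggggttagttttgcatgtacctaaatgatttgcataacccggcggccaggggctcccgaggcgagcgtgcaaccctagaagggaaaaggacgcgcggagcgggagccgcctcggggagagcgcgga

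The TCF and LEF core matched once in the window of Frzb, with its first base at position -95 from the start and on the opposite strand, and once in that of Dkk2, at -80. In the window of Fzd1 it matched at -242, on the opposite strand, and at -37. No match to these letters lay in the windows of Lgr6 and Lgr4, nor in that of Fzd4. A window was found for 31 of the 48 members (34 windows in all), and 9 of the 34 (26.5%) held the core, beside 27.9% of 18791 windows of protein-coding genes measured on the array. The longer site CTTTGAT, which contains the core, was in 2 of the 34, those of Wnt11 and Wnt5b, or 5.88%, beside 3.18% of these windows. AGATAA or TGATAA, the core of GATA sites, was in 4 (11.8% against 15.4%), with 2 matches in that of Fzd1. The member windows were rich in CpG, with a median of 25.5 CpG dinucleotides (range 4 to 58) against 14 and a GC content of 67.2% against 57.3%. Frzb, Fzd1, Lgr4 and Lgr6 had 20, 16, 18 and 24 CpG dinucleotides and Dkk2 had 11. A match is a description of the letters, not a bound site.

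The median span over the 6 libraries was 0.75 for the 19 Wnt ligands, near the 0.78 of all genes, against 1.46 for the Frizzled receptors and 1.82 for the 4 Dickkopf genes. The ligands were also dimmer, with a highest value of 7.41 against 9.14 for the Frizzled receptors and 8.64 for the Dickkopf genes. Whether the dimmer signal narrowed their spans was not tested. Of the 19 ligands, 6 were at least 2-fold apart between some pair of libraries, near the share of all genes (32.4%). None was 4-fold apart, beside 10.6% of all genes, and the widest span was 1.82, for Wnt8a. Wnt8a, a ligand of early mesoderm formation, was 6.88 in iPS cells, 5.37 with DMSO, 5.53 with NRG-1, 5.06 with both, 5.11 in the neonatal and 5.27 in the adult library. It was the 1 member at least 2-fold higher in iPS cells than in all other libraries, beside 3.34% of all genes, but with libraries shifted to equal housekeeping medians its difference for NRG-1 was -0.97, under 2-fold, and its iPS level lay under the higher minimum of 6.93 used as an alternative.

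Of the ligands, Wnt7b was at least 2-fold higher than in iPS cells in all 3 cultures, Wnt9a and Wnt11 in those with DMSO and with both agents, and Wnt2b and Wnt4 with DMSO alone. The values with NRG-1 were 0.64 for Wnt9a, 0.98 for Wnt11, 0.34 for Wnt2b and 0.90 for Wnt4. With both agents they were 0.79 for Wnt2b and 0.99 for Wnt4. Wnt7b, a ligand of several developing epithelia, was 5.03 in iPS cells, 6.35 with DMSO, 6.29 with NRG-1, 6.32 with both, 4.87 in the neonatal and 5.40 in the adult library. It was thus at least 1.26 above iPS cells in each culture and below the median of all values in iPS cells and the neonatal library. Wnt11, a ligand that acts mainly without beta-catenin and is known from heart development, was 6.05 in iPS cells, 7.23 with DMSO, 7.03 with NRG-1, 7.41 with both, 6.10 in the neonatal and 6.42 in the adult library. Every culture lay above both heart libraries for Wnt11.

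Wnt9a was 5.58 in iPS cells, 6.94 with DMSO, 6.22 with NRG-1, 6.94 with both, 6.48 in the neonatal and 5.78 in the adult library. Wnt2b was 5.80 with DMSO, 5.58 with both and 5.14 with NRG-1, against 4.79 in iPS cells and 4.95 and 4.85 in the neonatal and adult libraries. For both ligands the NRG-1 culture was the lowest of the cultures. Wnt4, known from kidney and gonad formation, was between 6.77 and 6.90 in the cultures and the neonatal library, and 5.87 and 6.06 in the iPS and adult libraries. Wnt5a, the typical ligand without beta-catenin action, was lowest in iPS cells (5.51) and between 6.09 and 6.43 elsewhere, under 2-fold apart.

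Wnt3, Wnt3a, Wnt1, Wnt10a, Wnt10b, Wnt2, Wnt5b, Wnt6, Wnt7a, Wnt8b, Wnt9b and Wnt16 were under 2-fold apart in every pair of libraries or never reached the median of all values. Wnt3 and Wnt3a, ligands known for the primitive streak, lay between 4.02 and 4.87 and between 5.45 and 5.69. Several Wnt genes are direct neighbours in the genome, with 0 protein-coding genes between them in RefSeq, namely Wnt3a and Wnt9a, Wnt3 and Wnt9b, Wnt6 and Wnt10a, and Wnt1 and Wnt10b. With DMSO, no such pair had both genes 2-fold apart from iPS cells. Wnt9a differed from iPS cells by 1.36 and its neighbour Wnt3a by -0.07. The differences were 0.48 and 0.27 for Wnt10a and Wnt6, -0.10 and -0.54 for Wnt9b and Wnt3, and 0.40 and -0.33 for Wnt10b and Wnt1.

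**Figure D3:**
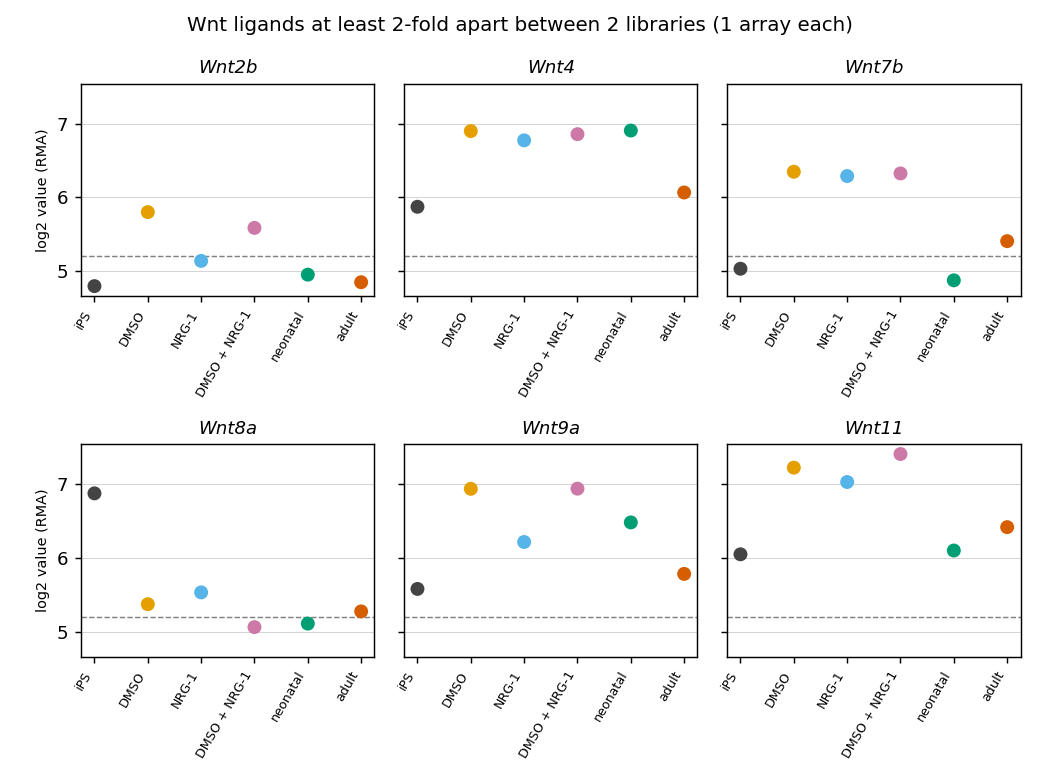
Log2 value of the 6 Wnt ligands at least 2-fold apart between some pair of libraries, with 1 point per library and the median of all values as a dashed line. Wnt8a is highest in iPS cells (6.88), Wnt7b and Wnt11 are highest in the 3 cultures, and Wnt2b and Wnt9a are lower with NRG-1 alone than in the DMSO cultures.

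The heart libraries were compared with iPS cells by counting members at least 2-fold apart whose higher value reached the median of all values. In the neonatal library 8 of 48 members were higher, beside 7.93% of all genes (16.7% of the members), and 4 were lower, beside 6.87% (8.33% of the members). The higher ones were Frzb, Fzd1, Fzd4, Fzd8, Sfrp1, Lgr6, Fzd2 and Wnt4, and the lower ones Lgr4, Wnt8a, Fzd5 and Dkk1. In the adult library 8 were higher, beside 8.12% of all genes, with Dkk2 in and Wnt4 out, and 3 were lower (Lgr4, Wnt8a and Fzd5), beside 8.75%. The filter was passed by 34 and 36 members. The median difference of all 48 was 0.03 and 0.09, against -0.04 and -0.02 over all genes. These comparisons share the iPS library. The fibroblast and matrix markers differed from iPS cells by a median of 3.77 and 4.44 and the cardiomyocyte markers by 0.63 and -0.27. The part of these cells in the Wnt gene differences was not tested, and in such bulk libraries fewer cells of a type and less RNA per cell cannot be told apart.

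Between the adult and neonatal libraries, 3 members were at least 2-fold higher in the adult, beside 1.5% of all genes (6.25% of the members), and 0 were lower, beside 1.74%. The 3 were Dkk2 (1.68), Frzb (1.31) and Lgr6 (1.06), an antagonist of the co-receptors, a ligand antagonist and an R-spondin receptor. Wnt4 and Wnt9a had differences of -0.84 and -0.70, under 2-fold. With the housekeeping shift 2 were higher and 1 lower, as Lgr6 was at 0.84 and Wnt4 at -1.05. Between these libraries the fibroblast and matrix markers had a median of 0.36, with 2 of 12 at least 2-fold higher, the macrophage and leukocyte markers had 4 of 9 higher, and the cardiomyocyte markers had 7 of 14 lower. Of the epicardial and mesothelial markers 5 of 8 were lower and 1 (Aldh1a2) higher, with a median of -1.38, and 3 of 9 epithelial markers were lower. Their part was not tested.

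Each differentiated culture was compared with iPS cells. With DMSO 11 members were at least 2-fold higher (22.9% of the members), beside 8.11% of all genes, and 1, Wnt8a, was lower, beside 8.25%. The 11 were Frzb, Dkk3, Fzd4, Fzd6, Wnt9a, Fzd1, Wnt7b, Wnt11, Wnt4, Dkk2 and Wnt2b, of which Dkk2, Wnt2b and Wnt4 passed narrowly (1.01, 1.00 and 1.03) and were not counted after cyclic loess. With the minimum level raised to 6.93, 7 members were called in all, against 12 (11 higher and 1 lower). Frzb, Dkk3, Fzd4, Fzd6, Wnt9a, Fzd1 and Wnt11 were those 7. With NRG-1 5 were higher, beside 7.01% of all genes, and 3 were lower, beside 9.01%. With both agents 7 were higher, beside 8.02%, and 3 were lower, beside 8.08%. The split changed with the housekeeping shift, to 10 higher and 1 lower with NRG-1 and 10 higher and 2 lower with both. The shift rests on 9 genes that were not all steady. Hprt was at least 2-fold lower and B2m at least 2-fold higher than in iPS cells in each culture. For NRG-1 that setting added Fzd1, Lrp6, Wnt11, Wnt4 and Wnt9a and dropped Wnt8a and Sfrp2. Frzb, Fzd4, Dkk3, Fzd6 and Wnt7b were higher in all 3 cultures, and Wnt8a was lower in all 3. Sfrp1 was at least 2-fold lower in both cultures with NRG-1 and differed by -0.86 with DMSO, a gap between cultures that was not tested. Sfrp2 was counted in the same cultures by the mean of its probe sets, but its brighter probe set was at least 2-fold lower with DMSO too, and the housekeeping shift removed both counts.

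No member had all 3 cultures at least 2-fold above, or below, all other libraries (0 of 48), beside 1.7% and 0.573% of all genes, but with the housekeeping shift Wnt7b was above. Markers of endoderm and yolk sac were higher than in iPS cells by a median of 2.42 with DMSO, 2.73 with NRG-1 and 2.67 with both. Epithelial markers were higher by 3.42, 2.90 and 3.24 and cardiomyocyte markers by 1.17, 0.85 and 1.29. Fibroblast and matrix markers were higher by a median of 1.71, 1.06 and 1.52, with 7 of 12 at least 2-fold higher in each culture. Pdgfrb, Ddr2, Tcf21, Fn1 and Thy1 were not among the 7, and Thy1 differed by -0.75, -0.54 and -0.85. The part of any cells with these markers in the differences of Wnt genes was not tested.

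**Figure D4:**
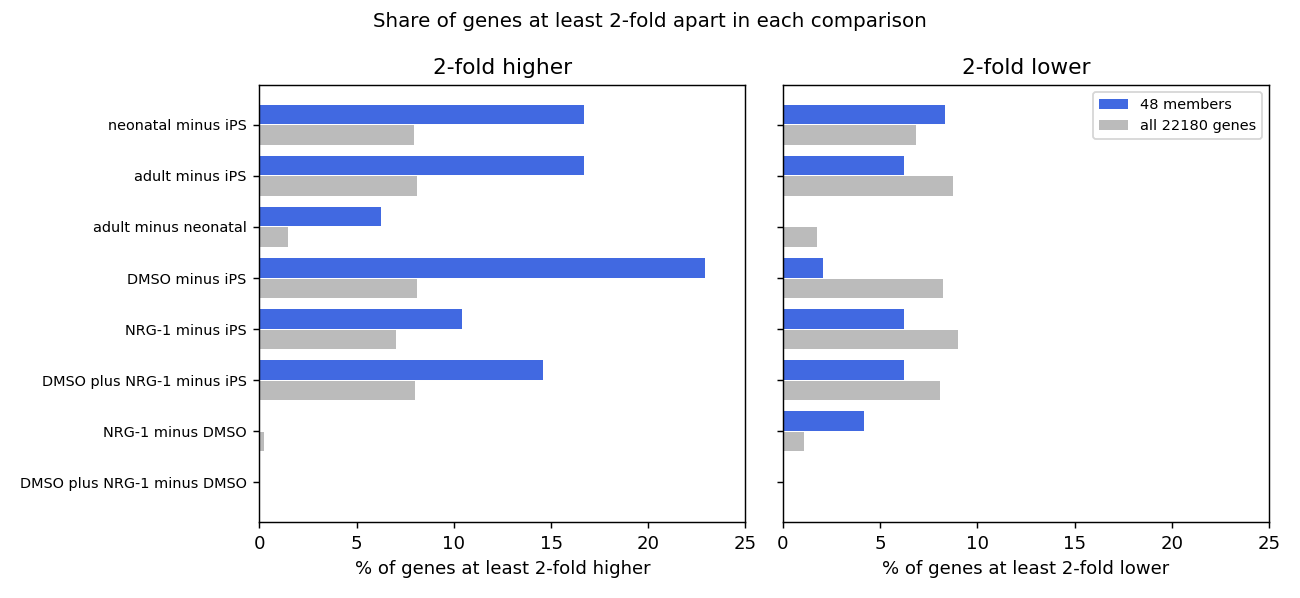
Percent of the 48 members (blue) and of all 22180 genes (grey) at least 2-fold higher (left) or lower (right) in each of the 8 comparisons. The widest gap is for DMSO against iPS cells, where 22.9% of members and 8.11% of all genes were higher, and no member differed 2-fold between the culture with both agents and that with DMSO.

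The cultures were then compared among themselves to ask how NRG-1 differed from DMSO. In 2 of 48 members (4.17%) some pair of cultures was at least 2-fold apart, beside 1.52% of all genes, and for 39 members the cultures were within 0.5 of each other, a share near the 80.4% of all genes. NRG-1 alone was at least 2-fold below DMSO for Sfrp1 (2.21-fold) and Dkk2 (2.19-fold), beside 1.07% of all genes, and above it for 0 members, beside 0.216%. With libraries shifted to equal housekeeping medians the values were -0.94 and -0.93, under 2-fold, and with the minimum level at 6.93 Sfrp1 alone was counted. Next came Dkk3, Wnt9a and Wnt2b, at -0.87, -0.72 and -0.66, and on the other side Frzb, at 0.57.

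With both agents 0 members were at least 2-fold above DMSO and 0 below it, beside 0.0271% and 0.0316% of all genes, which is 6 and 7 genes. The largest differences were 0.66 for Dkk4 and 0.62 for Fzd2, and Sfrp1 and Dkk2 differed by -0.51 and -0.14. Between NRG-1 alone and DMSO, fibroblast and matrix markers had a median of -0.41, 2 of 14 cardiomyocyte markers (Myh6 and Actn2) were at least 2-fold lower, and 3 of 8 epicardial and mesothelial markers (Upk3b, Upk1b and Msln) were lower too. Their part in the lower Sfrp1 and Dkk2 was not tested.

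Genes that make and carry Wnt ligands were read from a list of 10. Porcn, the enzyme that adds the lipid to Wnt proteins, was 8.69 in iPS cells, between 7.08 and 7.61 in the cultures, and 6.17 and 6.29 in the neonatal and adult libraries. Wls, which carries Wnt proteins to the surface, ran the other way, from 7.36 in iPS cells through 8.17 to 8.92 in the cultures to 9.59 and 10.32 in the heart libraries. iPS cells were thus the highest library for Porcn and the lowest for Wls. Sulf1, which trims heparan sulfate chains that hold Wnt proteins, was higher than in iPS cells by 1.28 and 2.19 in the heart libraries and lower in the cultures, with -1.46, -1.71 and -1.43 for DMSO, NRG-1 and both, like Sfrp1. Gpc3, a glypican, was above iPS cells by 2.13 to 2.15 in the cultures and by 1.02 in the neonatal library, and below them by a difference of -2.35 in the adult one. Gpc6, another glypican, did not fall there. It was 6.01 in iPS cells, between 7.84 and 8.36 in the cultures, 8.37 in the neonatal and 9.01 in the adult library. In all, 4 of the 10 were at least 2-fold higher and 1 lower in the neonatal library, 5 and 2 in the adult, 5 and 2 with DMSO, 3 and 4 with NRG-1, and 5 and 2 with both. The shares of all genes in these comparisons lay between 6.87% and 9.01% per direction.

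Of 14 other co-receptors and antagonists, 1 was higher and 2 were lower in each heart library, and 3 and 1, 2 and 0, and 2 and 1 with DMSO, NRG-1 and both. Beside 6.87% to 9.01% of all genes per direction, counts of 1 or 2 in a list of this size are near those shares. Kremen1, a Dickkopf co-receptor, was higher by 1.37, 1.14 and 1.35 in these cultures. Rnf43, the ligase that removes Frizzled receptors, was 1.42 higher with DMSO. Igfbp4 rose most in this list, from 7.72 in iPS cells to between 9.48 and 9.77 in the cultures. It was 8.93 in the neonatal and 8.79 in the adult library. The lower genes in the heart libraries were Dkkl1 and Shisa3. Dkkl1 was 5.16 in the neonatal and 4.56 in the adult library, against 6.31 in iPS cells. Shisa3 was 5.08 and 5.01 there, against 6.24. Among 13 receptors and polarity genes that act without beta-catenin, the receptor kinase Ror1 was higher by 1.97 in the neonatal and 2.10 in the adult library, and Ryk, another Wnt receptor, by 1.05 and 1.04. Prickle1 was higher by 1.52, 1.62 and 1.75 in the cultures with DMSO, NRG-1 and both. Over this list 3 genes were higher and 1 lower in the neonatal library, 2 and 1 in the adult, and 1 and 2 in each culture. The shares of all genes are the same as for the list before, and counts of 1 or 2 are near them.

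The intracellular transducers were counted against shares of all genes between 6.87% and 9.01% in each direction. Of 18, none was at least 2-fold higher in a heart library. Lower were 1 (Tle4) in the neonatal and 2 (Tle4 and Btrc) in the adult library. Btrc was 8.35 in iPS cells, 7.35, 7.34 and 7.40 with DMSO, NRG-1 and both, and 7.34 in the adult library. Among the cultures it was counted as lower with NRG-1 alone, but all 3 lay near the 2-fold limit. Dvl3, a Dishevelled protein, was the single one higher in the cultures (1.03, 1.04 and 1.11). Such counts are near the shares of all genes. The beta-catenin gene Ctnnb1 lay between 10.56 and 11.39 in all libraries. The corepressor Tle4 differed from iPS cells by -2.78 in the neonatal and -4.12 in the adult library. Of 7 nuclear partners, Tcf7l2 was higher by 2.37, 3.14 and 2.78 in the cultures and 1.13 in the neonatal library, whereas Tcf7l1, a repressor linked to pluripotent cells, differed by -1.25 and -1.36 in the heart libraries.

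Feedback and target genes of the pathway were read from a list with 23 measured genes. Axin2, the standard feedback gene of beta-catenin signalling, was 6.50 in iPS cells, 6.28 with DMSO, 6.35 with NRG-1, 6.18 with both, 5.68 in the neonatal and 6.04 in the adult library, under 2-fold apart throughout. Lef1, Sp5, Nkd1, Znrf3 and Notum were also under 2-fold from iPS cells in every library, with Lef1 at -0.94 in the neonatal one. Notum lay between 4.81 and 5.48, Nkd1 between 4.87 and 5.61 and Sp5 between 5.29 and 5.63. These levels are near the median of all values (5.20), so a 2-fold fall of those 3 genes may not show. The 4 list genes at least 2-fold higher in the neonatal library were Ccnd1 (1.26), Myc (1.57), Ccn4 (2.38) and Twist1 (2.16), and those in the adult library were Myc (1.59), Ccn4 (2.71), Ccn5 (1.80) and Twist1 (1.65). None was lower. Genes of this list answer to many other signals, and Twist1 and Ccn4 are also known from fibroblasts. What lay behind their differences was not tested. In the cultures 2 were higher with DMSO (Rnf43 and Ccn4), 1 was lower with NRG-1 (Ccnd1, -1.27), and 0 reached 2-fold with both. Beside 7.01% to 9.01% of all genes per direction, these counts are near or under those shares. With both agents Rnf43 differed by 0.98 and Ccnd1 by -0.99, just under that limit. The list median was -0.32 and -0.05 in the heart libraries and -0.10, -0.15 and -0.14 in the cultures, beside medians of all genes between -0.04 and 0.00.

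**Figure D5:**
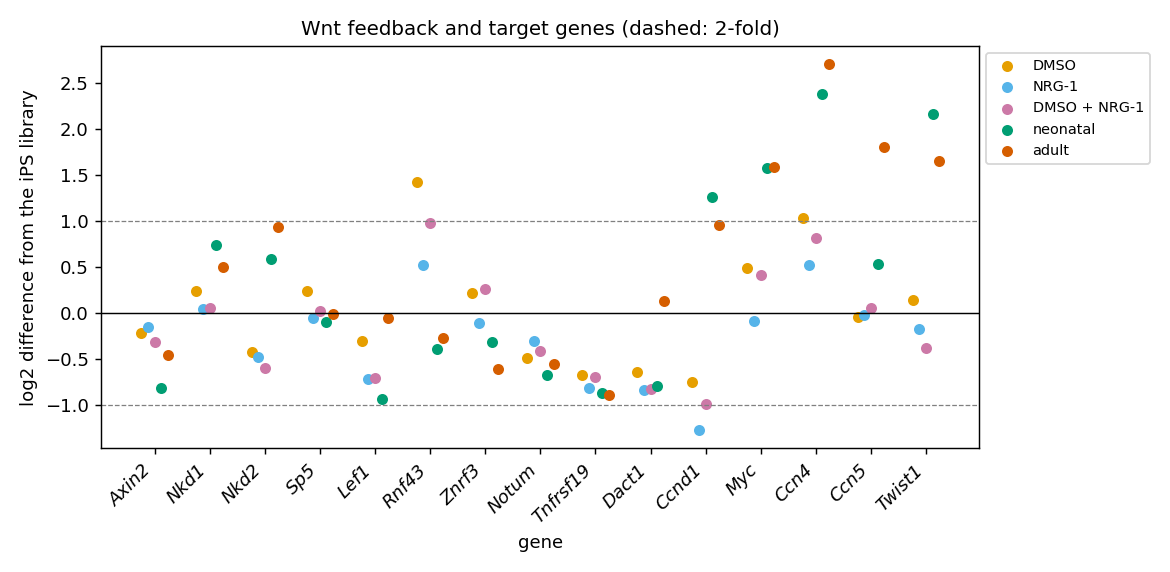
Log2 difference from the iPS library for 15 Wnt feedback and target genes in the other 5 libraries, with 2-fold marked by dashed lines. Axin2, Nkd1, Sp5, Lef1, Znrf3 and Notum lie within 2-fold of iPS cells in all libraries, and Ccn4, Myc and Twist1 lie above 2-fold in both heart libraries.

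Of 9 measured markers of mesendoderm and early mesoderm, the stage at which Wnt ligands act first, 4 passed the minimum level in each culture comparison. None was at least 2-fold higher than in iPS cells and 1, Nodal, was lower in each culture, which is near the shares of all genes for a list of this size.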

How the data were processed

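RNA from 6 mouse samples was measured on 1 array each, from 300 ng of total RNA per the labels' protocols. The deposited table holds log2 values of 41345 probe sets, and per the submitters' processing notes the authors used RMA. This method corrects background, makes the array distributions alike and summarises probes, so a change of total RNA or of most genes at once cannot be seen. The sources used here do not give its version or a genome build. The scale was inferred from the range of the values, and the table holds no background or detection value.

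Groups came from the sample titles. Probe sets with 1 gene symbol in the platform annotation (23521 of 41345) gave 22180 genes, as means over probe sets. Probe sets with several symbols (1814) were left out. A gene was counted in a comparison when its log2 difference was at least 1 and the higher value reached 5.20, the median of the whole table. Shares of all genes use the same rule over 22180 genes. With 1 library per group no test was run. The counting steps were tested on simulated data. The gene family and the lists were chosen with earlier results of these data known; the rule within the family used symbols alone. Every member may be named, and those at least 4-fold apart are given in every library. A few genes of each other list are named, not always those with the largest differences. Ctnnb1, Axin2, Lef1, Sp5, Nkd1, Znrf3 and Notum were added as known genes of the pathway. Of the list entries, Gsk3a, Tcf7 and T were not named singly by the annotation.

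Alternatives were no filter, a minimum of 6.93 (the 75th percentile), the brightest probe set, cyclic loess (limma 3.58.1 in R 4.3.3), shifting libraries so that 9 housekeeping genes had equal medians, and centring on the median difference. Other steps used Python 3.11.15 with pandas 2.3.3. Promoter sequences came from RefSeq.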

Additional observations from a re-analysis of the deposited data

Results flagged for a closer look

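Sfrp1 was singled out because every differentiated culture was below iPS cells and both heart libraries were above them. The distance between the nearest values, adult library over DMSO culture, was 1.96 on the log2 scale, and this difference was not tested. Groups had 1 library each, so no search for outlying samples within a group was possible.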

How the results depend on the processing

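The 14 counts of members (8 comparisons and 6 patterns over libraries) stayed within 1.5 times their value without a filter and with cyclic loess, and the 8 comparison counts did so after centring. A minimum level at the 75th percentile gave 7 members for DMSO against iPS cells, 5 for NRG-1 against iPS cells, 1 for NRG-1 against DMSO and 0 highest in iPS cells. The housekeeping shift moved the median of all genes by up to 0.37 (NRG-1 against iPS cells). The 9 genes behind it were not all steady. Against iPS cells B2m was higher in every library, by 2.58 to 3.47. Hprt differed by -1.31, -1.13 and -1.57 with DMSO, NRG-1 and both. The housekeeping median was the level of Hprt in iPS cells (10.175) and that of Sdha in every other library, so against iPS cells the shift compares single genes. The shift turned 5 higher and 3 lower members for NRG-1 against iPS cells into 10 and 1, 7 and 3 for both agents into 10 and 2, and 3 and 0 for adult against neonatal into 2 and 1. It gave 12 higher and 4 lower for neonatal against iPS cells (8 and 4 otherwise), 0 members for NRG-1 against DMSO, 2 lower in heart (Lgr4 and Fzd5), 1 higher in all cultures (Wnt7b) and 0 highest in iPS cells. The brightest probe set gave 2 members highest in iPS cells, Sfrp2 and Wnt8a. No called difference of a member reversed, but the housekeeping shift and centring were too small to reverse one. Of 168 single differences, 5 moved by 1.5-fold or more (0.58) with the brightest probe set. All were of Sfrp2, the single gene among them with 2 probe sets, so no other gene could move. With cyclic loess 0 moved. The housekeeping shift and centring change every gene of a comparison by the same amount, which was under 0.58. For these settings a count of 0 was therefore fixed in advance and says nothing about single genes. No paired analysis was possible because each group has 1 library, and no library could be left out for the same reason. Signal over background could not be judged, since the table has no background values.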
